A study of Arabidopsis thaliana with 6 samples.

Results

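A run of neighbouring genes on chromosome 3 of Arabidopsis thaliana, from AT3G43740 to AT3G47250, was described in epiF3 plants and in Col-0 wild-type plants. Its members were all genes with a locus number in that range that were named alone by a probe set (a group of array probes for 1 transcript). There were 182 such genes, of 13355 named in this way in the whole table, and 1 probe set stood for each gene, the brightest by its mean over 6 arrays. The run was chosen by its signals in epiF3 and wild type: both end genes fell strongly in epiF3, and genes past the threshold lay between them. All differences between epiF3 and wild type given here are therefore a description of the run, and the adjusted p-values say only which genes passed in the fit of all probe sets.

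Plants called epiF3 (3 arrays) were set against wild-type plants (3 arrays), and the labels give Col-0 as the ecotype of both. In both groups the aerial part of 30-day-old plants grown under 12 hours of light at 22 °C was used, and each array held biotin-labelled RNA of 1 sample. Titles number the samples of each group as biological replicates, and RNA was extracted plant by plant. The description field calls the epiF3 samples albino plants of an msh1 mutant, and how that relates to the name epiF3, or whether the plants come from 1 line, is not settled by the labels. MSH1 is known as a MutS homologue that acts in plastids and mitochondria, and it is not analysed here. Values are log2 signals after robust multi-array averaging (RMA), so a difference of 1 is a 2-fold change.

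Leaf markers were high on all arrays. The 2 measured of 8 listed, LHCB4.1 of the photosystem II antenna and PRK of carbon fixation, averaged 11.28 to 11.60 on epiF3 arrays and 11.52 to 11.88 on wild-type arrays. The 2 measured of 7 root markers, PYK10 and EXPA7, averaged 3.04 to 3.52 on epiF3 arrays and 3.13 to 3.40 on wild-type arrays. They differed: PYK10 had means of 4.17 in epiF3 and 4.16 in wild type, near the array medians of 4.08 to 4.32. EXPA7 was lower, at 2.52 in epiF3 and 2.29 in wild type. AMS, the only anther marker listed, lay in the lowest 25% of all 6 arrays, and 4 seed and 4 flower markers were not analysed here. One array stood apart: hybridization controls, bacterial and phage RNAs added at the laboratory, averaged 10.53 on epiF3 replicate 3, 8.19 and 8.36 on the other epiF3 arrays, and 7.11 to 8.21 on wild-type arrays. The value below which 25% of probe sets lay was 2.58 on that array and 2.35 to 2.41 on the other 5. In 19 of the 182 genes of the run (10.4%), epiF3 replicate 3 was more than 0.5 above every other array, beside 4.99% of all probe sets. For each of the other 5 arrays this held for 1 to 3 genes of the run. Results are therefore also given without epiF3 replicate 3, and the part of this array in them was otherwise not tested.

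The run holds gene families that plants keep in several neighbouring copies. NLR proteins are receptors inside the cell that recognise pathogen molecules and start defence, and their genes often lie in clusters that differ between accessions. DUF247 proteins are a plant family whose function in Arabidopsis is largely unknown; in ryegrass, DUF247 genes are part of the self-incompatibility system. Histone H2B is a core protein of the nucleosome, around which DNA is wound. Serine carboxypeptidase-like (SCPL) proteins cleave peptides or transfer acyl groups, and nitrate and peptide transporter (NPF) proteins carry nitrate, peptides and other small molecules across membranes. RefSeq (TAIR10.1) lists 469 genes with a locus number in the run, of which 373 are protein-coding and 83 are pseudogenes. Of the 182 measured genes it lists 166 as protein-coding and 16 as pseudogenes. No product names were at hand, so the protein class of a gene that carries only a locus name is general knowledge of the Arabidopsis annotation. Family members were listed by hand and the lists may be incomplete. Counts of family members in the run therefore hold for the listed genes only.

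Most genes of the run differed little between epiF3 and wild type, and a few differed by large amounts in either direction. In the fit with limma, 9 of 182 genes had an adjusted p under 0.05, against 0.598% of all 22746 probe sets. Of these 9, 6 were lower in epiF3 (against 0.33% of all probe sets) and 3 were higher (against 0.268%). Since this contrast chose the run, nothing is read from these shares. The falls were AT3G47250, AT3G43740, AT3G44630, HTB11, AT3G47010 and AT3G44610, and the rises were AT3G46490, AT3G45680 and scpl48. On bulk tissue, fewer cells that carry a transcript and less transcript in each cell cannot be told apart. All values are probe signals, and the DNA of the epiF3 plants was not examined here.

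**Figure D1:**
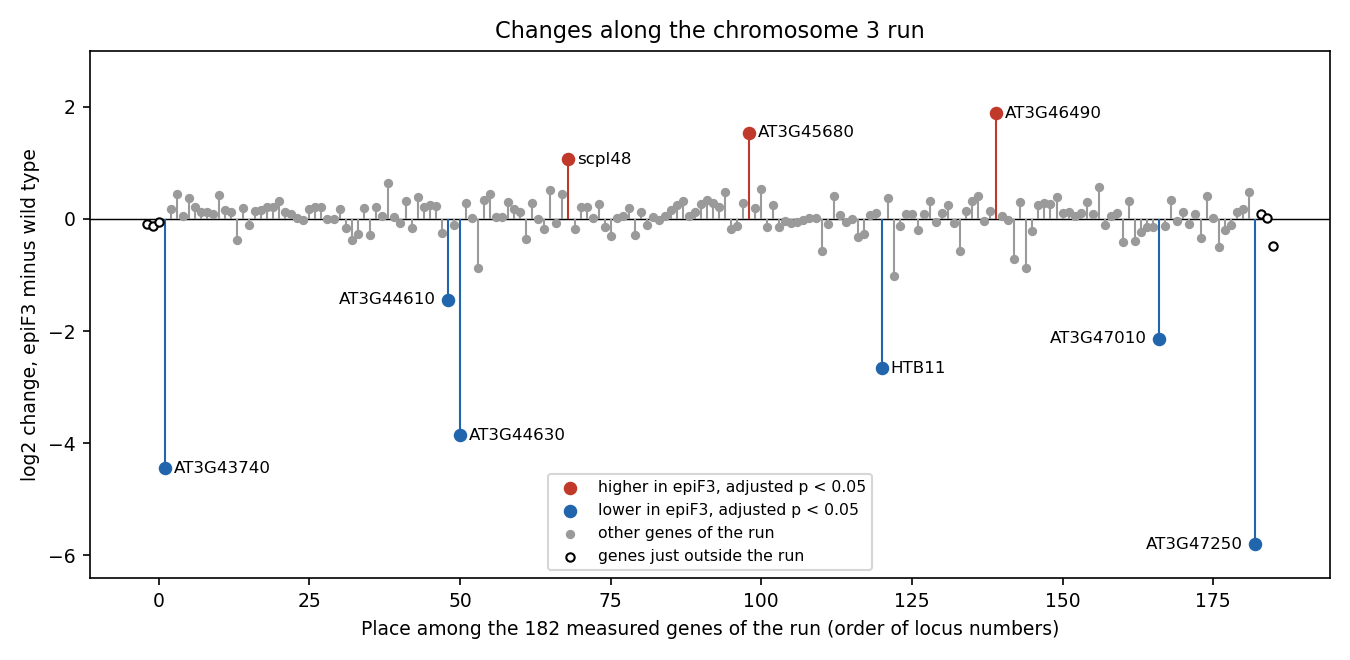
Difference in log2 signal, epiF3 minus wild type, for the 182 measured genes of the run in the order of their locus numbers, with 3 genes outside each end as open points. The 6 genes past the threshold that were lower and the 3 that were higher are labelled, and 163 genes lie within 0.5 of zero.

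Of the other 173 genes, 163 had a difference within 0.5 of zero on the log2 scale, and all lay between -1.02 and 0.64. For 157 of them the 95% interval of the difference, unadjusted for the number of genes, stayed within 2-fold in both directions, and for 16 it did not. The median difference of the 182 genes was 0.083, beside 0.030 over all probe sets and 0.038 over the 2548 other measured genes of chromosome 3. With other scalings the median of the run was 0.012 (cyclic loess), 0.016 (quantile normalization) and 0.15 (median centring), beside -0.0012, 0.012 and 0.10 over all probe sets. It was 0.046 with array weights and 0.037 without epiF3 replicate 3, and without the dimmest 40% of probe sets it was -0.11 over the 69 genes that remained. Negative differences made up 66 of 182 genes (36.3%), beside 44.3% of all probe sets.

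Many genes of the run gave signals near the floor of the array. In the lowest 25% of every array were 56 of the 182 genes (30.8%), beside 18.6% of the rest of chromosome 3 and 16.2% of all probe sets. A change toward or from that floor is understated in size, and no detection calls were used. With the dimmest 40% of probe sets left out, 69 of the 182 genes stayed in the fit, all 9 genes past the threshold among them. Of the 16 measured pseudogenes, 10 lay in the lowest 25% of every array, beside 46 of the 166 protein-coding genes. The pseudogenes had differences of -0.17 to 0.47, and 0 passed the threshold, beside 0.598% of all probe sets. All 9 genes past the threshold are protein-coding in RefSeq, as are 166 of the 182 measured genes, so nothing is read from this.

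The largest fall of the run was that of AT3G47250, its last gene, which encodes a DUF247 protein. Its log2 signal was 1.95, 2.13 and 1.72 in epiF3 replicates 1 to 3, against 7.72, 7.77 and 7.71 in wild type. The epiF3 values lay in the lowest 25% of their arrays and the wild-type values close together, with 5.58 log2 units between the nearest arrays of the groups. The difference was -5.81 with a standard error of 0.14 (limma, adjusted p = 4.49e-06), 55.9-fold in signal. The other listed DUF247 gene of the run, AT3G47210, lay 3 places before it among the measured genes and was in the lowest 25% of all 6 arrays. Its mean signal was 2.02 ± 0.30 over epiF3 arrays and 1.90 ± 0.03 over wild-type arrays (SD, n = 3 each), and the sign of its difference of 0.12 turned without epiF3 replicate 3 and with array weights.

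AT3G43740, the first gene of the run, encodes a protein with leucine-rich repeats, a motif through which proteins often bind one another. Its log2 signal was 2.03, 2.05 and 2.16 in epiF3 plants, against 6.44, 6.53 and 6.60 in wild-type plants. As for AT3G47250, all epiF3 values were among the lowest 25% of their arrays, and the nearest arrays of the groups were 4.28 apart. The fall was 4.45 on the log2 scale with a standard error of 0.12, 21.8-fold in signal. These were the only 2 genes of the run in the lowest 25% of all epiF3 arrays and of no wild-type array, beside 48 of all 22746 probe sets. No gene of the run showed the opposite pattern, beside 25 of all probe sets. Since the falls of these 2 end genes chose the run, nothing is read from these counts.

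Among the NLR genes of the run, 1 of the 4 listed fell and the others did not pass the threshold. AT3G44630, a gene of the TIR-NBS-LRR class, had log2 signals of 2.66, 2.74 and 2.94 in epiF3, against 6.69, 6.90 and 6.34 in wild type. Its epiF3 arrays were all low and none of its values overlapped. The difference was -3.86 with a standard error of 0.17 (limma, adjusted p = 9.41e-05), 14.5-fold in signal. AT3G44400, of the same class, had means of 1.95 ± 0.12 over epiF3 arrays and 2.25 ± 0.26 over wild-type arrays (SD, n = 3 each), and its groups overlapped. AT3G46710 and AT3G46730, NLR genes of the class with a coiled coil, had differences of 0.05 and 0.31. For both, wild-type signals lay between 1.77 and 2.46, near the floor, and the sign for AT3G46710 turned with cyclic loess and with quantile normalization.

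AT3G44610, a protein kinase gene, lay close to AT3G44630, with 1 annotated gene between them in RefSeq order. Its log2 signal was 3.27, 3.29 and 3.06 in epiF3, against 4.53, 4.63 and 4.78 in wild type. The groups did not overlap, and the fall of 1.44 had a standard error of 0.13 (limma, adjusted p = 0.00511). The gene between them, AT3G44620, had means of 6.73 in epiF3 and 6.83 in wild-type plants, a difference of -0.10 with a standard error of 0.18. On the other side of AT3G44610 lay CYP71, which encodes a cyclophilin, with a difference of -0.25.

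HTB11, a gene for histone H2B, fell in all epiF3 plants but stayed above the lowest 25% of each array. Its log2 signal was 4.58, 4.69 and 5.42 in epiF3, against 7.73, 7.62 and 7.33 in wild type. The third epiF3 array was the highest of its group and still 1.91 below the lowest wild-type array. The fall was 2.66 with a standard error of 0.23, 6.33-fold in signal (limma, adjusted p = 0.00402). Outside the run, 3 genes with an HTB symbol were named alone by a probe set, HTB1, HTB2 and HTB4. None passed the threshold, beside 0.463% of all genes outside the run, and their differences were 0.06 to 0.19. H2B genes that carry only a locus name were not looked for there. H2B genes are close in sequence, so some signal of one can come from another, and the share was not measured here.

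Histone H4 genes of the run, AT3G45930 and AT3G46320, are measured by 5 probe sets that each name the same 8 H4 genes. None passed the threshold. Differences of 4 of them lay between -0.20 and 0.14, and that of the other was -1.46 with a standard error of 0.46 (limma, adjusted p = 0.277). In all, 21 probe sets name several genes with at least 1 of them in the run. Of these 0 passed, beside 0.598% of all probe sets. These 21 probe sets are no members, since their signal cannot be given to 1 gene.

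AT3G47010, a glycosyl hydrolase gene, had log2 signals of 2.63, 2.79 and 1.95 in epiF3, against 4.62, 4.96 and 4.19 in wild type. Both groups spread by about the same amount (SD 0.45 in epiF3 and 0.39 in wild type, n = 3 each) and stayed 1.40 apart. The fall was 2.13 with a standard error of 0.27 (limma, adjusted p = 0.0209), 4.39-fold in signal. The 4 other listed glycosyl hydrolase genes of the run did not pass, with differences of -0.14 to 0.34. The highest of these, AT3G47050, was at 3.28 on epiF3 replicate 3, beside 2.05 and 2.04 on the other epiF3 arrays, and without that array its sign turned (-0.069). The nearest measured neighbours of AT3G47010 are 2 of these 4 genes. AT3G47000 averaged 6.80 in epiF3 and 6.94 in wild type, and AT3G47040 averaged 1.96 in epiF3 and 2.09 in wild type.

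**Figure D2:**
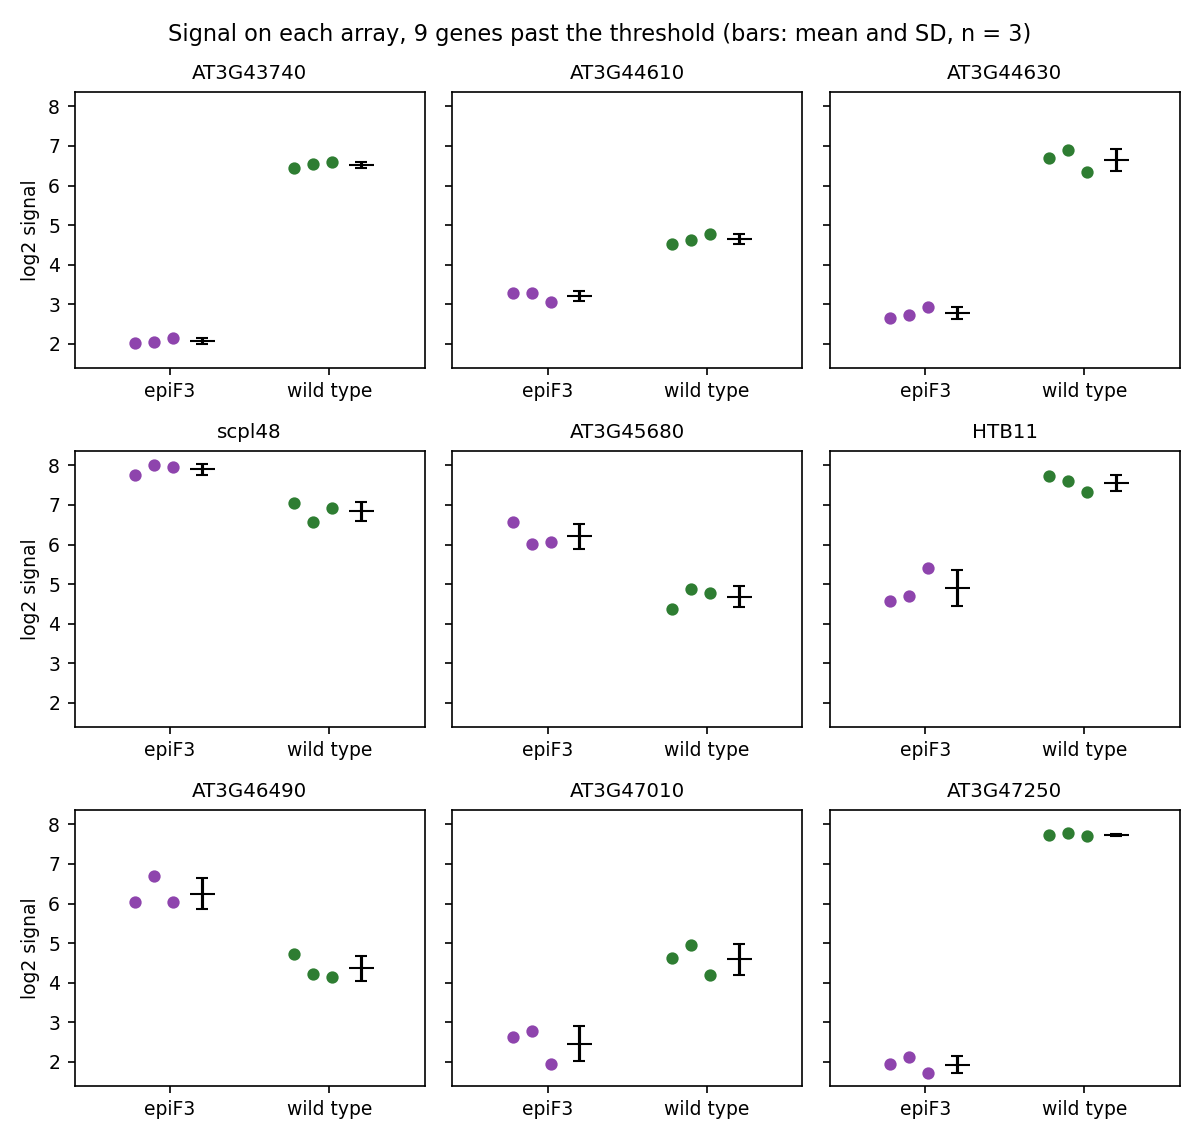
Log2 signal of the 9 genes of the run past the threshold on each epiF3 array (left) and each wild-type array (right), with bars for the mean and SD (n = 3 each). In no gene do the groups overlap, and the gap between them is widest for AT3G47250 (5.58) and narrowest for scpl48 (0.70).

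Of the genes higher in epiF3, AT3G46490 rose most. It encodes a member of the 2-oxoglutarate and iron-dependent oxygenases, which hydroxylate or oxidise many small molecules. Its log2 signal was 6.03, 6.69 and 6.03 in epiF3, against 4.72, 4.23 and 4.14 in wild type. The rise was 1.89 with a standard error of 0.23 (limma, adjusted p = 0.0187), 3.70-fold in signal. The genes on either side, AT3G46480 and AT3G46500, belong to the same class and did not pass the threshold. AT3G46480 averaged 2.76 in epiF3 and 2.63 in wild type, and AT3G46500 averaged 2.00 in epiF3 and 1.96 in wild type. Both signs turned without epiF3 replicate 3.

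AT3G45680, an NPF transporter gene, had log2 signals of 6.57, 6.01 and 6.05 in epiF3, against 4.37, 4.88 and 4.78 in wild type. Its groups were 1.13 apart, and the rise was 1.53 with a standard error of 0.20 (limma, adjusted p = 0.0241), 2.89-fold in signal. It is the first of 5 adjacent measured NPF genes, AT3G45680 to AT3G45720. The other 4 did not pass, with differences of -0.14 to 0.54, and wild-type means of 2.02 to 2.37. AT3G45700 was at 3.93 on epiF3 replicate 3 but at 2.41 and 2.39 on the other epiF3 arrays, and at 2.34 to 2.39 in wild type. Without epiF3 replicate 3 these 4 differences lay between -0.059 and 0.032. A probe set shared by NAXT1, a nitrate efflux transporter, and AT3G45660 had a difference of 0.19.

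The gene scpl48 (AT3G45010) had log2 signals of 7.75, 8.01 and 7.96 in epiF3, against 7.05, 6.58 and 6.91 in wild type. All epiF3 arrays were above all wild-type arrays, and the rise of 1.06 had a standard error of 0.16 (limma, adjusted p = 0.0384), 2.09-fold in signal. It is the only measured gene of the run with an SCPL symbol. Elsewhere in the genome 28 genes with an SCPL symbol were measured and none passed, beside 0.463% of all genes outside the run. At so low a share, this does not set scpl48 apart from the family. Differences of the 28 genes were -0.93 to 0.22, with a median of -0.056. The lowest of these, scpl42, had an adjusted p of 0.0704.

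**Figure D3:**
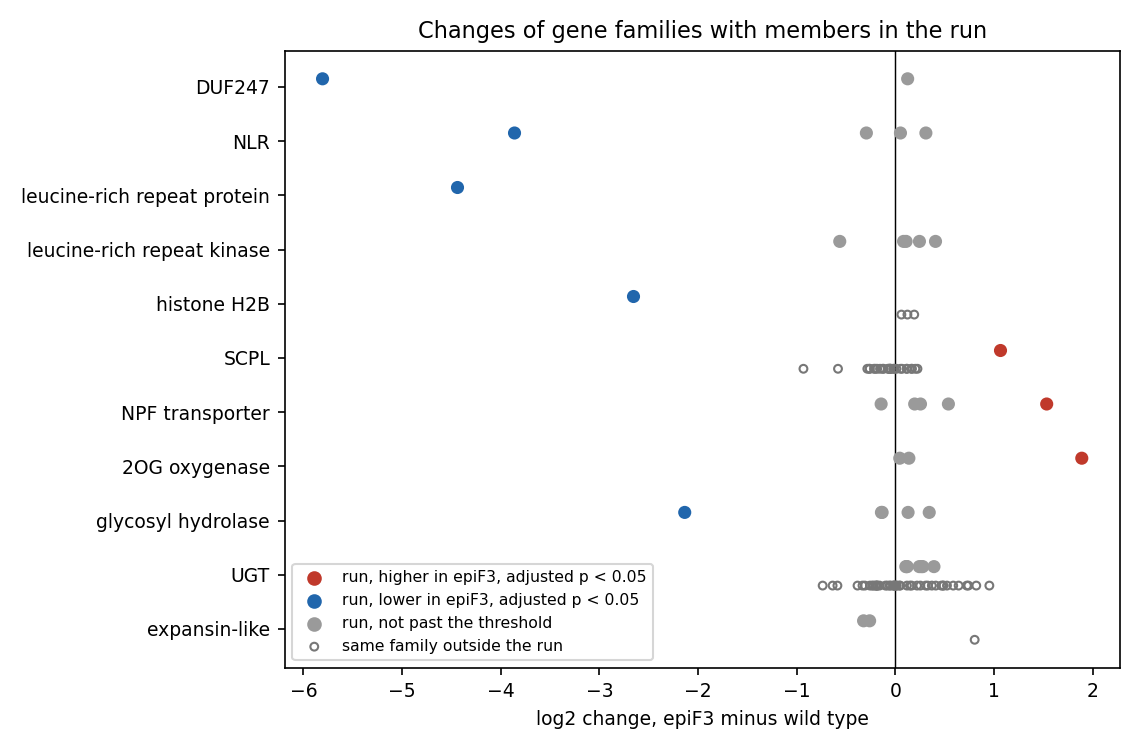
Difference in log2 signal, epiF3 minus wild type, for gene families with members in the run (filled points) and, where RefSeq symbols allow, for members elsewhere in the genome (open points). In the DUF247, NLR, NPF, oxygenase and glycosyl hydrolase families 1 listed member of the run passed the threshold, and the other listed members lay between -0.29 and 0.54.

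The UDP-glycosyltransferases, the leucine-rich repeat kinases and the expansin-like genes of the run had no member past the threshold. The 7 UDP-glycosyltransferase (UGT) genes between AT3G46650 and AT3G46720, enzymes that attach sugars to small molecules, had differences of 0.11 to 0.39, and of 0.12 to 0.29 without epiF3 replicate 3. Of these, 2 lay in the lowest 25% of all arrays. Apart from UGT76E11, with a wild-type mean of 4.49, their wild-type means were only 1.74 to 2.65. The 45 genes with a UGT symbol measured outside the run had a median difference of 0.007, and 0 passed, beside 0.463% of all genes outside the run. They were not matched to the genes of the run for signal. The 5 listed leucine-rich repeat kinase genes had differences of -0.56 to 0.41, and of -0.37 to 0.26 without epiF3 replicate 3. The highest of them, AT3G46400, was at 2.86 on that array, beside 1.79 and 1.65 on the other epiF3 arrays, and its difference without it was 0.026. AT3G46370 among them varied widely within both groups, at 3.81, 3.13 and 2.88 in epiF3 and at 2.83, 4.19 and 4.49 in wild type. The expansin-like genes EXLA3 and EXLA1, whose relatives loosen cell walls, had differences of -0.32 and -0.26 with overlapping groups. The value for EXLA1 was -0.010 without epiF3 replicate 3. EXLA2, on chromosome 4, had a difference of 0.80 with groups that did not overlap (limma, adjusted p = 0.11).

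Beyond the 9 genes, the 4 of smallest p in each direction were as follows. On the lower side were AT3G44740 (-0.88), related to the enzymes that load amino acids onto transfer RNA, AT3G46540 (-0.72), of a class that acts in vesicle transport, AT3G46110 (-1.02) and AT3G45850 (-0.57), for a kinesin motor protein. On the higher side were AT3G44430 (0.64), AT3G46770 (0.56), of the B3 class of DNA-binding proteins, the tetraspanin gene TET3 (0.48) and AT3G45900 (0.40). In all 8 the arrays of the groups did not overlap, and their adjusted p in limma ran from 0.126 to 0.29. Among all 182 genes the groups did not overlap for 36, beside 16.9% of all probe sets, with epiF3 higher in 23 of them (beside 9.75%) and lower in 13 (beside 7.11%). For AT3G44740 the signals were 3.67, 3.65 and 3.02 in epiF3, against 4.17, 4.34 and 4.47 in wild type. For AT3G44430 they were 5.66, 5.45 and 5.42 in epiF3, against 4.99, 4.67 and 4.97 in wild type. The nearest arrays of the groups were 0.50 apart for AT3G44740, whose epiF3 replicate 3 was the lowest array, and 0.43 apart for AT3G44430. AT3G46110, a gene of the DUF966 family, had 1 array far from the others, with 5.21 on wild type replicate 2, 4.25 and 4.18 on the other wild-type arrays, and 3.42 to 3.61 in epiF3.

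The 3 genes of the run with the brightest probe sets in wild type did not pass the threshold. AT3G47070, which encodes a thylakoid phosphoprotein, averaged 10.30 ± 0.13 in epiF3 and 10.33 ± 0.34 in wild type. AT3G44590, for an acidic ribosomal protein, averaged 8.69 ± 0.03 in epiF3 and 8.46 ± 0.15 in wild type. AT3G45160 was at 8.28 ± 0.04 in epiF3 and at 8.41 ± 0.18 in wild type (SD over 3 arrays a group for all 3 genes). The sign for AT3G47070 turned with median centring.

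**Figure D4:**
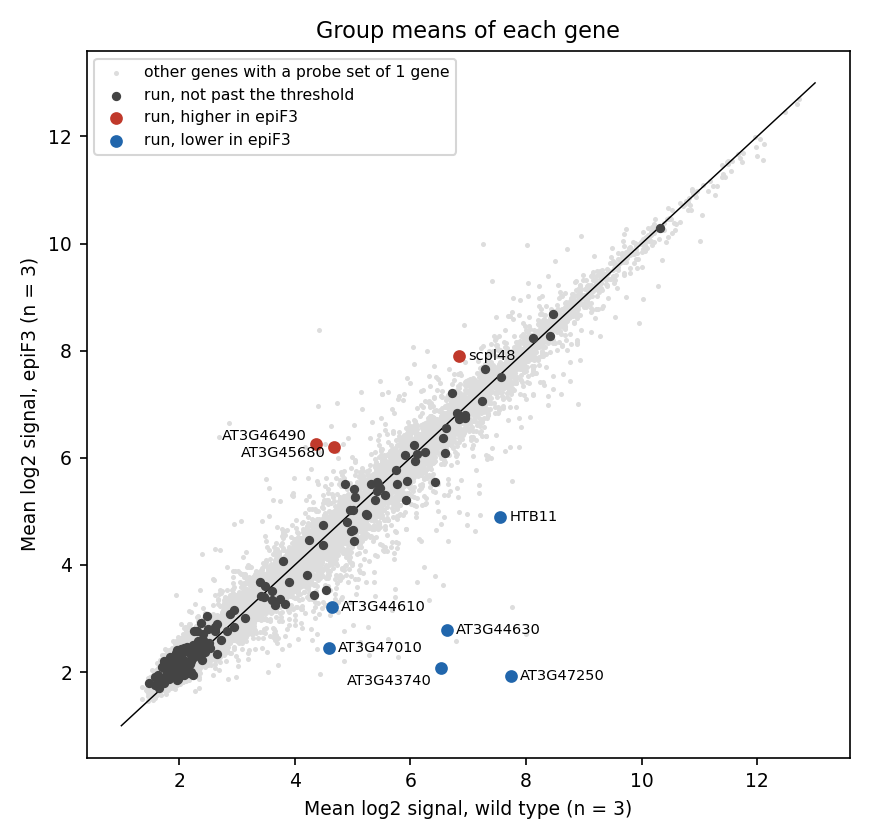
Mean log2 signal in epiF3 (vertical axis) against that in wild type (horizontal axis) for the run and for all other genes named alone by a probe set (pale points), with the line of equal signal. The 6 genes of the run that were lower and the 3 that were higher are labelled. Of its other 173 genes, 163 lie within 0.5 of the line, and the farthest is 1.02 below it.

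Along the run, genes that passed lay singly among genes that did not. Of 8 steps from one gene past the threshold to the next, the shortest had 1 measured gene between (AT3G44610 to AT3G44630). The longest had 46, from AT3G43740 to AT3G44610, across 126 annotated genes. The 15 measured genes of the run next to a gene past the threshold had differences of -0.25 to 0.47. That none of them passed only restates this spacing, which was not tested. Falls lay at both ends, by which the run was chosen, and in the middle. The rises from scpl48 over AT3G45680 to AT3G46490 lay between AT3G44630 and AT3G47010, with the fall of HTB11 among them.

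Cut into 7 stretches of 26 measured genes each, the run had medians of 0.15, 0.025, 0.092, 0.15, -0.012, 0.13 and -0.096 from its first to its last stretch. Each stretch held 1 or 2 genes past the threshold, and those of the first and last include the end genes that chose the run. None of the 3 measured genes just outside each end passed the threshold. Before AT3G43740 these were AT3G43680 (-0.083), AT3G43690 (-0.12) and AT3G43730 (-0.046), and after AT3G47250 they were AT3G47260 (0.089), AT3G47270 (0.022) and AT3G47295 (-0.48). The value of AT3G47295 rests on wild type replicate 3, at 6.54 and the highest of all 6 arrays, and it was -0.23 without that array. Of these 6, 4 changed sign under at least 1 alternative setting. Just inside the ends, AT3G43750 averaged 1.85 in epiF3 and 1.68 in wild type, and AT3G47240, a pseudogene in RefSeq, had means of 2.21 in epiF3 and 1.73 in wild-type plants. The mean of AT3G47240 in epiF3 rests on replicate 3, at 3.06 beside 1.83 and 1.73 on the other epiF3 arrays, and its difference was 0.048 without that array.

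The 9 results rested on single arrays to different degrees. AT3G47250, AT3G43740, AT3G44630, HTB11 and AT3G44610 passed the threshold in all 6 fits that left out 1 array, with adjusted p of at most 0.0391 in limma. AT3G47010 passed in 1 of these 6 fits, the one without wild type replicate 3, with a fall of 1.88 to 2.34 over the 6. Of the rises, AT3G46490 passed in 3 of 6 fits, and scpl48 and AT3G45680 in 1 of 6 each. No rise passed (0 of 3) in the fits that left out epiF3 replicate 2, epiF3 replicate 3 or wild type replicate 2. One (1 of 3) passed in the fits that left out the first replicate of either group. Leaving out an array also lowers precision: all probe sets past the threshold then made up 0.145% to 0.365%, and 1.77% without wild type replicate 3. All 9 genes kept their direction in each fit. Without epiF3 replicate 3, the array with high hybridization controls, AT3G47250 had a difference of -5.70, HTB11 one of -2.92 and AT3G46490 one of 2.00.

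**Figure D5:**
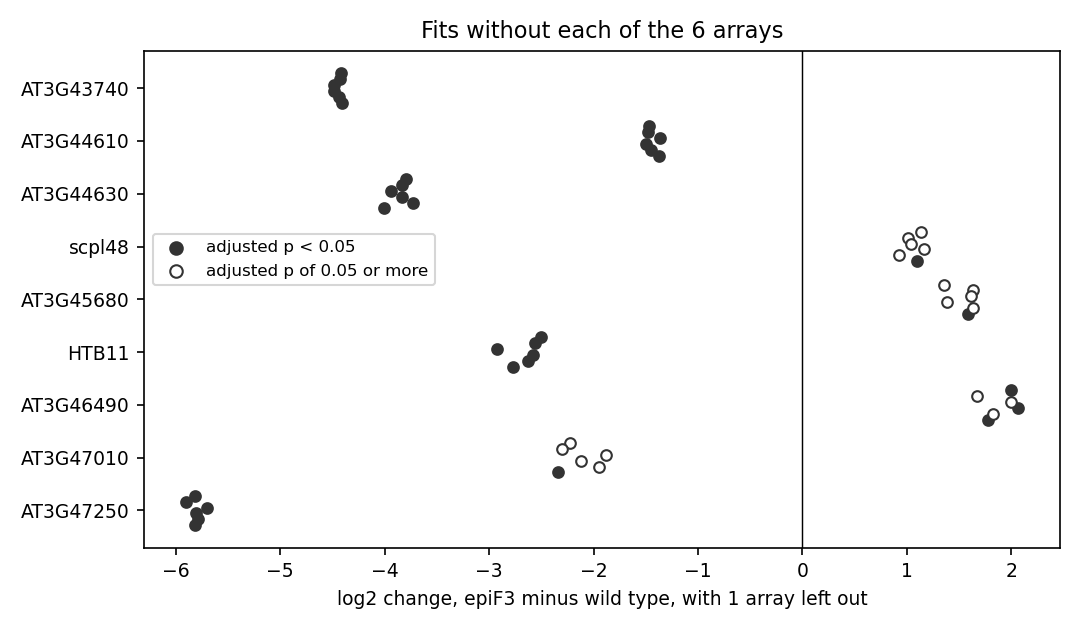
Difference in log2 signal, epiF3 minus wild type, of the 9 genes when each of the 6 arrays was left out in turn, with 1 point for each fit. Filled points passed the threshold in limma, and the 5 genes with filled points in all 6 fits are all lower in epiF3.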

How the data were processed

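The series was measured on an Affymetrix expression array. Each array has 1 log2 value for each probe set, deposited by the authors and made with RMA in the affy package, per the submitters' processing notes. No source used here gives versions. The scale was taken as log2 from the values (1.21 to 13.4). Of 22810 probe sets, 64 controls were left out and 22746 tested; 13513 name 1 gene, 503 several, and 8730 are unnamed here. The number of arrays (3 a group) limits the precision.

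Groups came from titles. epiF3 was compared with wild type in limma 3.58.1 (R 4.3.3; lmFit and eBayes, two-sided, without a block), Benjamini-Hochberg adjusted over all probe sets and a threshold of 0.05. The fit was also run on simulated data with independent normal errors and no array effects. That run checks the code only and says nothing about the arrays used here. RefSeq TAIR10.1 served for symbols, gene types and gene order only. Python 3.11.15, pandas 2.3.3 and matplotlib 3.10.9 made tables and figures.

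The members and lists were chosen with earlier results of these data known. Genes named are those past the threshold, 4 more of smallest p in each direction, members of small families, the 3 brightest, and 3 outside each end. Families could not be matched by product name as planned, so a list of 36 genes was written by hand after the values were seen, 7 of them by RefSeq name; other planned families were not classified. A planned ranking of genes by correlation over 6 arrays is not given, since the arrays form 2 separate groups. Alternatives were other normalizations, filters, moderation, weights, a replicate block, another threshold, a minimum change and leaving out each array.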

Additional observations from a re-analysis of the deposited data

How the results depend on the processing

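All 9 genes past the threshold kept their direction under the 18 alternatives, and 5 (AT3G47250, AT3G43740, AT3G44630, HTB11 and AT3G44610) kept their call under each. Against 6 lower and 3 higher genes of the run, the count of lower genes was 5 to 6 with 1 array left out and within 1.5 times under every other setting. The count of higher genes was 0 at a threshold of 0.01, 5 with array weights, and 0 to 3 with 1 array left out. In a fit with the replicate block, 0 genes were higher and 6 lower, and 74 probe sets in all passed, beside 136 without it. Deviations of same-numbered arrays from their group means had r of -0.077, -0.042 and -0.045. For pairs with different numbers r was -0.035 to 0.091. With 3 arrays a group these values cannot show whether same-numbered arrays shared a batch, and this was not tested. The median of the run was -0.11 without the dimmest 40% of probe sets, where 69 genes remained, and 0.037 to 0.10 with 1 array left out. With the scalings and weights tried it was 0.012 to 0.15, against 0.083. What else lies behind these shifts was not tested: some of these fits hold fewer genes or arrays. Over all probe sets, 449 passed with array weights and 33 to 402 with 1 array left out.

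Of the 25 other named genes, 2 passed the threshold under at least 1 alternative. Sign changes under some setting were seen for 9 of the 25, all with small values. With cyclic loess these were AT3G46710 (-0.026), AT3G46500 (-0.062), AT3G47260 (-0.010) and AT3G47270 (-0.088). With quantile normalization they were AT3G46710 (-0.042), AT3G46500 (-0.038) and AT3G47270 (-0.054). With median centring they were AT3G47070 (0.042) and AT3G43730 (0.026), and with array weights AT3G47210 (-0.0052) and AT3G47270 (-0.0092). AT3G47070 also turned without epiF3 replicate 1 (0.048). Over the 6 fits with 1 array left out, differences ran from -0.16 to 0.17 for AT3G47070, -0.034 to 0.27 for AT3G47210, -0.055 to 0.24 for AT3G46480, -0.0097 to 0.089 for AT3G46500, -0.13 to 0.0094 for AT3G43680, -0.0076 to 0.19 for AT3G47260 and -0.023 to 0.061 for AT3G47270.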
